A study of Mus musculus with 7 samples.

Results

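The 4 genes described here, Pou5f1 (which encodes Oct4), Sox2, Klf4 and Myc, are those whose retroviral copies were used to reprogram mouse embryonic fibroblasts (MEFs). They were selected by name and matched by symbol to their Ensembl identifiers, 4 of the 29267 genes in each expression table. All 4 were found, and each was above 0 in all 7 libraries.

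Oct4 is a POU homeodomain factor and Sox2 an HMG box factor, and the pair bind DNA next to each other at enhancers of pluripotency genes. Klf4 is a zinc finger factor that works with them in naive pluripotent cells, whereas Myc pairs with Max and acts on genes of growth and proliferation. Retroviral copies of the factors start reprogramming, and as cells become pluripotent the endogenous genes are switched on and retroviral expression is commonly silenced.

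The study compared reprogramming in a serum-containing mES medium with that in a serum-free, chemically defined 5C medium, and asked whether 5C cells take a pluripotent state of their own. OG2 MEFs, which carry an egfp transgene under the Oct4 promoter and distal enhancer, received retroviruses with Oct4, Sox2, Klf4 and c-Myc and were sorted by FACS on day 15 for this reporter. The sort therefore used the activity of an Oct4 promoter, although not the Pou5f1 transcript itself. One RNA-Seq library was made from each of 7 kinds of cells, so no spread between cultures could be estimated and no test was run.

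The mES-Oct4GFP+ and mES-Oct4GFP- cells came from mES medium, with DMEM, FBS, vitamin C and LIF. The 5C-Oct4GFP+ and 5C-Oct4GFP- cells came from 5C medium, with DMEM/F12, N2, bFGF, β-mercaptoethanol, vitamin C and LIF. All 4 were at passage 0. The 5C-Oct4GFP+ (naive) cells were 5C-Oct4GFP+ cells converted in medium with LIF and the inhibitors CHIR99021 and PD0325901. The 5C-Oct4GFP+ (primed) cells were converted in medium with bFGF and activin A. Both were at 20 passages. Per the paper, GFP fluorescence was lost in primed medium, so Oct4GFP+ in the name of the primed cells marks their origin. The passages are those of the sample labels. One figure legend of the paper gives only days in these media, whereas another adds 20 further passages. R1 ESCs-primed, also at 20 passages, came from the R1 mouse embryonic stem cell line. Their primed state was induced on MEF feeder cells, and they were then kept with CHIR99021 and IWR-1 in place of bFGF and activin A, so that their medium was not that given for the 5C-Oct4GFP+ (primed) cells. This line received no retroviruses, and so these cells gave the reference for the endogenous genes. As the only such library, it also differs in cell line, in medium and, from most others, in cell state. Infection cannot be told apart from these. The other 6 libraries descend from infected MEFs.

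Depth ranged from 6108252 to 11496615 estimated reads per library. The cell states were checked against their markers. The summed TPM (a level per transcript length) of 11 naive markers was 2759 TPM in 5C-Oct4GFP+ (naive) cells and 146 TPM in 5C-Oct4GFP+ (primed) cells, and that of 10 primed markers was 212 and 2117 TPM. The 12 fibroblast markers summed to 1306 TPM (mES-Oct4GFP-) and 661 TPM (5C-Oct4GFP-), against 21.4 and 54.1 TPM in their Oct4GFP+ partners, 19.9 TPM in naive, 115 TPM in primed and 314 TPM in R1 ESCs-primed cells. The 8 keratinocyte and epithelial markers summed to 1771 TPM in mES-Oct4GFP- and to between 508 and 1377 TPM elsewhere. No marker of the 12 fibroblast ones was at 0 in an Oct4GFP- library. The 7 primitive endoderm markers summed to 192 TPM without and 36.7 TPM with the reporter in mES medium, 84.2 and 29.8 TPM in 5C medium, and 24.8 to 104 TPM in the other 3 libraries. In bulk RNA, fewer cells of a type and less RNA per cell cannot be told apart, and the part of these other cells in the values below was not tested.

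The tables give 1 value per gene, in which reads from a retroviral cDNA and from the endogenous gene are summed and cannot be told apart. The distinction lies outside the coding sequence, because a reprogramming retrovirus usually carries the coding sequence without the untranslated ends of the mRNA. The qPCR primers used in the study are shown because some lie in these untranslated ends, and are printed 5′ to 3′ with coding bases in capitals and untranslated bases in lower case. Of 9 primers looked for on GENCODE M21 transcripts (GRCm38), 6 were found and are printed. Both endogenous Sox2 primers and the retroviral Pou5f1 reverse primer were not found on the main transcript of their gene. The Sox2 transcript searched has 2057 bases, whereas Sox2 is 2457 bases long in the expression data. A Sox2 primer not found may therefore lie in sequence that was not searched. The primer pair for endogenous Klf4 lay after the stop codon, at chr4:55527796-55527815 and chr4:55527707-55527727 on the minus strand. The forward primer for endogenous Pou5f1 lay before the start codon, at chr17:35506048-35506067 on the plus strand, and its partner lay in coding sequence at chr17:35506188-35506207. The reverse primers used for the retroviral copies lay in coding sequence, at chr4:55531646-55531665 for Klf4 and chr3:34650517-34650534 for Sox2.
Endogenous Klf4 forward: aacatgcccggacttacaaa
Endogenous Klf4 reverse: ttcaagggaatcctggtcttc
Endogenous Pou5f1 forward: taggtgagccgtctttccac
Endogenous Pou5f1 reverse: GCTTAGCCAGGTTCGAGGAT
Retroviral Klf4 reverse: GCTGGACGCAGTGTCTTCTC
Retroviral Sox2 reverse: GGGCTGTTCTTCTGGTTG

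For Myc, the annotation itself holds transcripts that are coding sequence alone, Myc-207 and Myc-208 (1362 bases). Myc-207 is 1365 bases long, begins with a CTG start codon at chr15:61985922 and ends with its stop codon at chr15:61989908, on the plus strand. It lies whole within Myc-201, a transcript of 2338 bases that goes on for 531 bases before it and 442 bases after it. The first and the last 30 bases of Myc-207 are given because they mark where the untranslated ends of Myc-201 begin. The start and the stop codon are in capitals. Other annotated transcripts, Myc-202, Myc-204 and Myc-205, have a shorter coding sequence of 1317 bases.
Myc-207 first 30 bases: CTGgatttcctttgggcgttggaaaccccg
Myc-207 last 30 bases: ctcgaacagcttcgaaactctggtgcaTAA

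Pou5f1 (ENSMUSG00000024406, chr17:35506018-35510772, plus strand) was among the 75 most abundant genes in every library. Its level in TPM, which is reads per unit of transcript length scaled to one total for all libraries, was 1321 with and 3640.4 without the reporter in mES medium, 2429 with and 1534 without it in 5C medium, 1698 in naive, 1698 in primed and 1503 in R1 ESCs-primed cells. The highest level was thus in cells without the reporter and the lowest in cells with it, both from mES medium, and the 2 differed by 2.76-fold (exact 95% interval 2.68 to 2.84). This interval, like the others given, covers only the counting of reads. By TPM, the naive and primed levels did not differ beyond counting error, with a ratio of 1.00 (0.975 to 1.03), nor did those of 5C-Oct4GFP- and R1 ESCs-primed cells, with a ratio of 1.02 (0.989 to 1.05). The match depends on the scale. By FPKM, a level per length scaled to mapped fragments, naive cells had 974 and primed cells 929.

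Another annotated gene, Gm19553, lies antisense within Pou5f1. Gm19553 (chr17:35509077-35510551, minus strand) has 494 exonic bases, of which 291 overlap exons of Pou5f1-201 and 203 lie in its introns. It was singled out after its values were seen. Because the library kit does not mark strand, reads of Gm19553 and of Pou5f1, unspliced RNA included, cannot be told apart there. Its RSEM estimate was 0 in both Oct4GFP- libraries. Among the others it had 6.36 TPM (mES-Oct4GFP+), 12.7 TPM (5C-Oct4GFP+), 10.4 TPM (naive), 3.06 TPM (primed) and 2.16 TPM (R1 ESCs-primed), on 3.5 to 30.5 estimated reads. These values depend on how RSEM divided reads between the overlapping genes, so an estimate of 0 does not show that no reads came from this stretch, and no counting limit is given.

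Sox2 (ENSMUSG00000074637, chr3:34650405-34652461, plus strand) followed a different order. In mES medium it had 328 TPM with and 498 TPM without the reporter, in 5C medium 459 TPM with and 679.9 TPM without it, and it had 277 TPM in naive, 92.8 TPM in primed and 81.2 TPM in R1 ESCs-primed cells. Both primed libraries lay below the other 5, and each Oct4GFP- library lay above its Oct4GFP+ partner. Highest and lowest differed by 8.37-fold, and every step in the order exceeded counting error. The noncoding gene Sox2ot overlaps Sox2 and was not analysed here.

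Klf4 (ENSMUSG00000003032, chr4:55527143-55532466, minus strand) had the widest range of the 4 factors, 322-fold (248 to 425) by TPM. By CPM, the reads scaled to the library total without regard to length, this ratio was 178 (137 to 235). The mES cells had 138.5 TPM with and 1613 TPM without the reporter, the 5C cells 522 TPM with and 1512 TPM without it, and the level was 152 TPM in naive, 12.2 TPM in primed and 5.01 TPM in R1 ESCs-primed cells. The 2 Oct4GFP- libraries were highest and the 2 primed libraries lowest. The primed value rests on 179 estimated reads and the R1 ESCs-primed value on 57, against 12453 in mES-Oct4GFP- cells.

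Myc (ENSMUSG00000022346, chr15:61985391-61990374, plus strand) was also highest without the reporter, but lowest in naive cells. It had 74.0 TPM with and 1884 TPM without the reporter in mES medium, 211 TPM with and 1622 TPM without it in 5C medium, 20.6 TPM in naive, 79.7 TPM in primed and 74.1 TPM in R1 ESCs-primed cells, a range of 91.4-fold (77.8 to 108). The naive value rests on 152 estimated reads. The R1 ESCs-primed value did not differ beyond counting error from the primed value just above it or the mES-Oct4GFP+ value just below it.

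**Figure D1:**
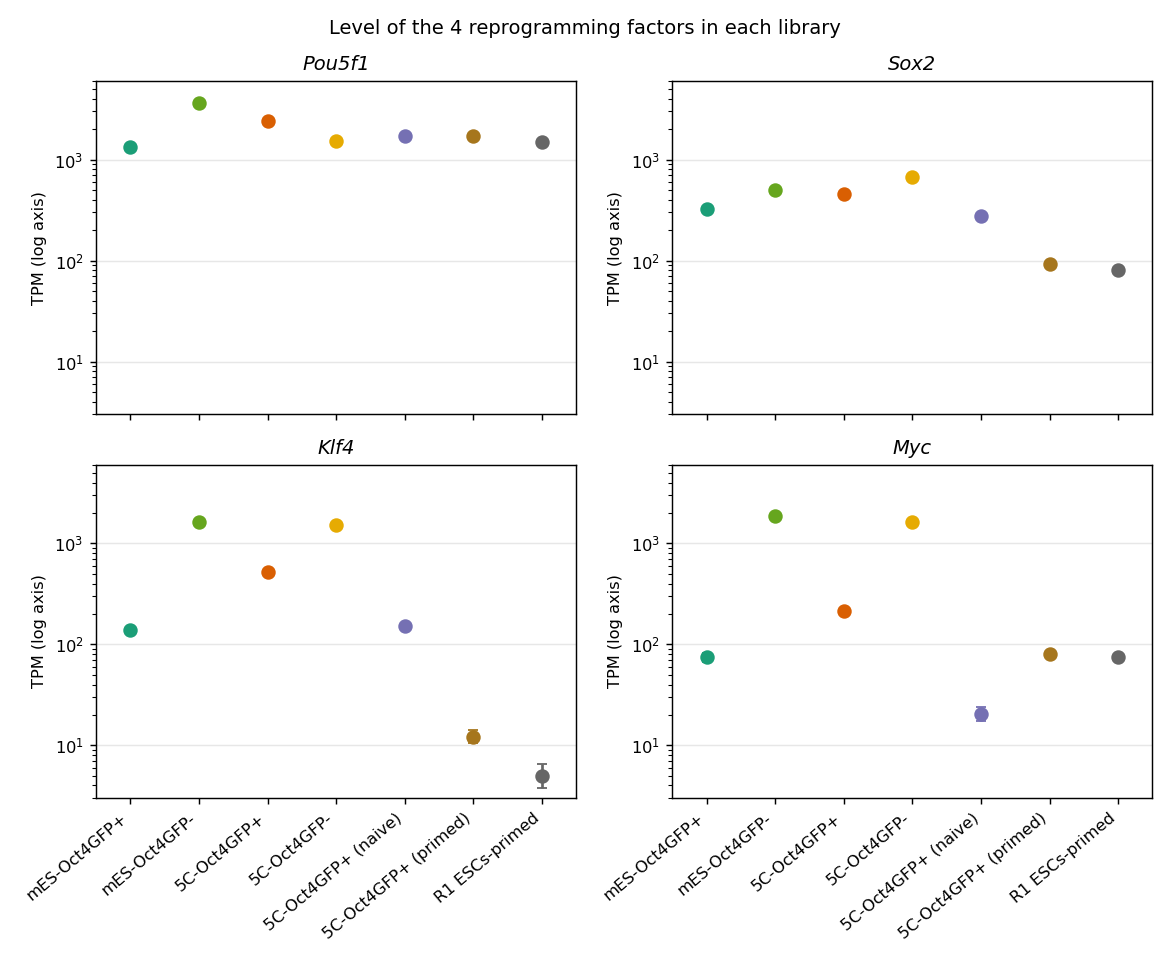
TPM (log axis) of Pou5f1, Sox2, Klf4 and Myc in each of the 7 libraries, 1 point per library, with bars for the exact 95% interval of the read count (often smaller than the point). Pou5f1 stays between 1321 and 3640.4 TPM, whereas Klf4 spans 5.01 TPM (R1 ESCs-primed) to 1613 TPM (mES-Oct4GFP-) and Myc spans 20.6 TPM (naive) to 1884 TPM (mES-Oct4GFP-).

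The length that RSEM assigns to a gene is the mean of its transcript lengths weighted by their estimated abundance, so it is shorter where reads are assigned to shorter transcripts. For Klf4 this length was 3029 bases in R1 ESCs-primed cells, which is the whole of Klf4-201, although this estimate rests on the 57 reads given above. It was 2927 bases with and 1823 bases without the reporter in mES medium, 2219.7 with and 1780.4 without it in 5C medium, 2980.2 in naive and 2415 in primed cells. The 2 Oct4GFP- libraries had 60.2% and 58.8% of the R1 ESCs-primed length, and mES-Oct4GFP+ and naive cells had 96.6% and 98.4%. The 5C-Oct4GFP+ cells lay between, at 73.3%, as did primed cells, at 79.7%.

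Klf4-201 holds 1449 coding bases out of 3029, and the other 2 annotated transcripts, of 522 and 859 bases, are fragments. With these 3 lengths, Klf4-201 would account for between 44.4% and 51.9% of the Klf4 level in mES-Oct4GFP- cells. The share was 42.5% to 50.2% in 5C-Oct4GFP-, 62.7% to 67.7% in 5C-Oct4GFP+, 95.3% to 95.9% in mES-Oct4GFP+, 97.8% to 98.1% in naive and 71.7% to 75.5% in primed cells. The fragments thus took about as much of the Klf4 level as the full transcript in both Oct4GFP- libraries.

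For Myc the estimated length was 1399.7 bases with and 1386 bases without the reporter in mES medium, 1467 with and 1382 without it in 5C medium, 1634 in naive, 1959 in primed and 2014 in R1 ESCs-primed cells. All 4 sorted libraries had between 68.6% and 72.9% of the R1 ESCs-primed length. They were near the 1365 and 1362 bases of the coding-only transcripts Myc-207 and Myc-208 described above. The primed cells, at 97.3%, were close to R1 ESCs-primed cells, and naive cells, on 152 reads, were at 81.1%. In mES-Oct4GFP+ and R1 ESCs-primed cells the Myc levels were alike (74.0 and 74.1 TPM), whereas the lengths were not.

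The background was 8418 genes that reached 5 TPM in all 7 libraries. Of these, 0.0594% had a length in both Oct4GFP- libraries that was at most Klf4's 60.2% of the R1 ESCs-primed length. These were 5 genes, Kif24, Elk4, Gm14295, Snora43 and Klf4 itself, listed after their values were seen. For Myc the share was 0.178%. Over the 7 libraries, the longest length was 1.70 times the shortest for Klf4 and 1.46 times for Myc, ranges reached by 2.36% and 6.56% of genes. In single libraries, the share of genes as short as Klf4 was 0.166% (mES-Oct4GFP-), 0.119% (5C-Oct4GFP-), 1.07% (5C-Oct4GFP+) and 1.41% (primed), but 21.2% (mES-Oct4GFP+) and 26.8% (naive). For Myc it was 0.428% (mES-Oct4GFP-), 0.356% (5C-Oct4GFP-), 0.891% (mES-Oct4GFP+), 0.998% (5C-Oct4GFP+), 3.87% (naive) and 19.4% (primed).

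No such difference was seen for Pou5f1, and none could be seen for Sox2. The Pou5f1 length was between 1318 and 1362 bases in all 7 libraries, a range that 61.1% of genes matched or exceeded. Its main transcript, Pou5f1-201, has 1056 coding bases in 1362. The shorter annotated transcripts of Pou5f1 are fragments of 435 to 994 bases. None is coding sequence alone, so the steady length does not tell where reads of Pou5f1 came from. Sox2 has 1 transcript, 2457 bases long in the tables, and so could not vary. Whether retroviral reads set the Klf4 and Myc lengths was not tested, since no table holds reads by position.

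**Figure D2:**
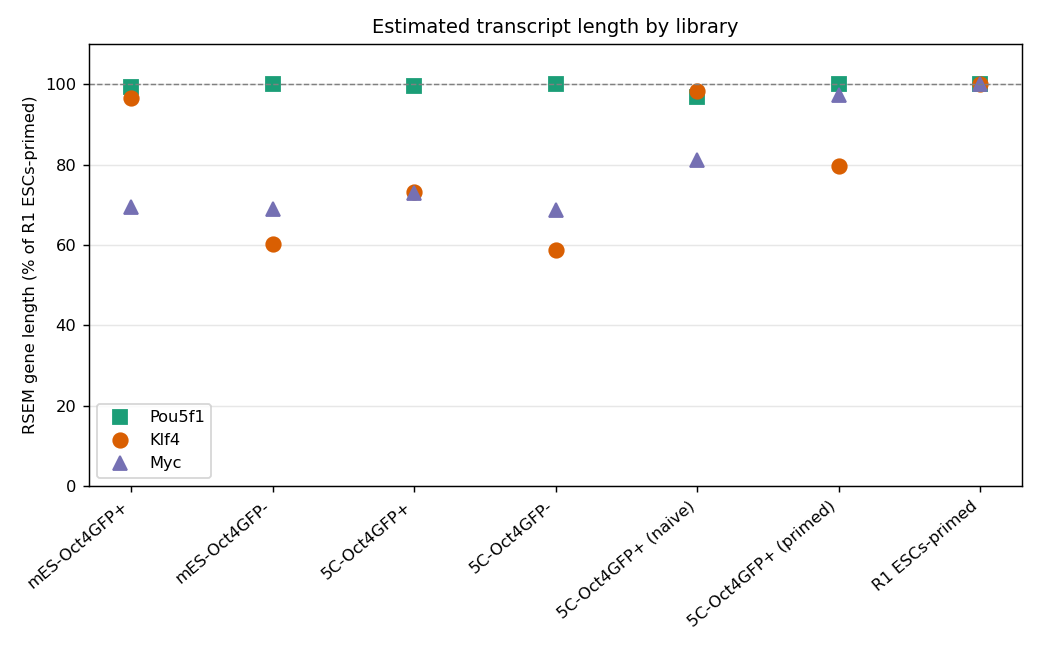
RSEM gene length of Pou5f1, Klf4 and Myc in each library as a percentage of the length in R1 ESCs-primed cells (dashed line), 1 point per gene and library. Klf4 is at 60.2% and 58.8% in the Oct4GFP- libraries and Myc is between 68.6% and 72.9% in all 4 sorted libraries, whereas Pou5f1 stays near 100%.

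Relative to Pou5f1 in the same library, the factors formed different ratios in the different cells. Sox2 was at 24.8% of the Pou5f1 TPM with and 13.7% without the reporter in mES medium, 18.9% with and 44.3% without it in 5C medium, 16.3% in naive, 5.46% in primed and 5.41% in R1 ESCs-primed cells. Klf4 was at 10.5% with and 44.3% without the reporter in mES medium, 21.5% with and 98.6% without it in 5C medium, 8.97% in naive, 0.716% in primed and 0.333% in R1 ESCs-primed cells. Myc was at 5.60% with and 51.7% without the reporter in mES medium, 8.71% with and 105.8% without it in 5C medium, 1.21% in naive, 4.69% in primed and 4.93% in R1 ESCs-primed cells. Only in 5C-Oct4GFP- cells did Klf4 and Myc come near the level of Pou5f1, with a Klf4 interval of 95.8% to 101.4% and a Myc interval of 102.7% to 108.9%. Sox2 was above Klf4 and Myc in mES-Oct4GFP+, naive and primed cells and below both in the 2 Oct4GFP- libraries, and in R1 ESCs-primed cells the Sox2 and Myc intervals overlapped.

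**Figure D3:**
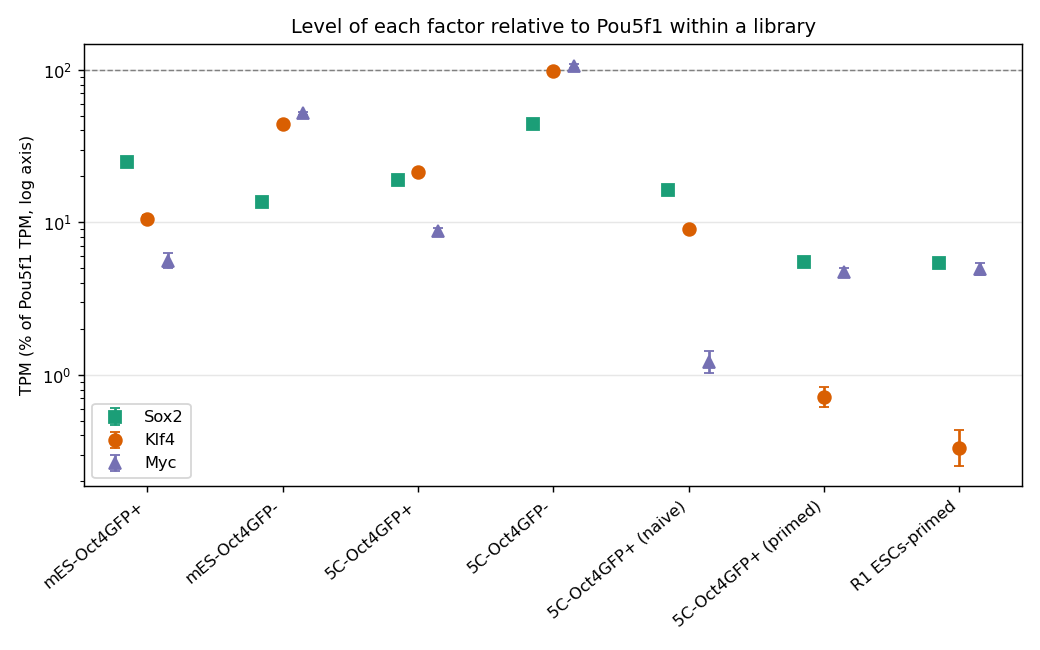
TPM of Sox2, Klf4 and Myc as a percentage of the Pou5f1 TPM in the same library (log axis, dashed line at 100%), with exact 95% counting intervals. Klf4 and Myc reach 98.6% and 105.8% in 5C-Oct4GFP- cells, and Klf4 is at 0.333% in R1 ESCs-primed cells. The Klf4 values include its fragment transcripts.

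The first comparison was between cells with and without the reporter. In mES medium, Pou5f1, Klf4 and Myc were all at least 2-fold lower with the reporter on the log2(TPM + 1) scale, and none was higher. The background was every gene that reached 1 TPM in one of the libraries compared, of which 28.8% were as much lower and 17.9% as much higher. Without the reporter, Myc was 25.4-fold higher (exact 95% interval 22.8 to 28.5), Klf4 11.6-fold (11.0 to 12.3) and Sox2 1.52-fold (1.45 to 1.59). Since the Klf4 TPM also depends on its shorter length, CPM gave 6.55-fold (6.19 to 6.94) for Klf4. All 12 fibroblast markers, 6 of 7 primitive endoderm markers and 5 of 8 keratinocyte and epithelial markers were also at least 2-fold higher without the reporter. Of these 8, the junction protein Cdh1 went the other way, with 295 TPM with and 124 TPM without the reporter, whereas Epcam stood at 208 and 218 TPM. Both were named after their values were seen. The part of such cells in the differences of the factors was not tested.

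In 5C medium, Klf4 and Myc were at least 2-fold lower with the reporter, and no factor was as much higher, beside 22.6% of all genes lower and 8.45% higher. Without the reporter, Myc was 7.67-fold higher (7.28 to 8.08), Klf4 2.90-fold (2.81 to 2.99) and Sox2 1.48-fold (1.43 to 1.53). By CPM, the Klf4 ratio was 2.16 (2.09 to 2.22). The 12 fibroblast markers were all at least 2-fold higher without the reporter here too, as were 4 of the 7 primitive endoderm and 4 of the 8 keratinocyte and epithelial markers. Pou5f1 took the other direction, 1.58-fold higher (1.54 to 1.63) in the cells with the reporter.

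The second comparison was between the media. Between the cells without the reporter, Pou5f1 alone passed 2-fold, being 2.37-fold lower (2.31 to 2.43) in 5C medium, where 10.1% of all genes were as much lower and 9.68% as much higher. Klf4 was 1.07-fold (1.04 to 1.10) and Myc 1.16-fold (1.13 to 1.19) lower, and Sox2 was 1.37-fold (1.32 to 1.42) higher. Between the cells with the reporter, Klf4 and Myc were at least 2-fold higher in 5C medium, beside 13.7% of all genes higher and 13.5% lower. The ratios were 3.77 (3.55 to 4.002) for Klf4, 2.86 (2.54 to 3.23) for Myc, 1.84 (1.78 to 1.89) for Pou5f1 and 1.40 (1.34 to 1.47) for Sox2. By CPM, the Klf4 ratio was 2.84 (2.68 to 3.02).

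The third question was what happened to the factors when 5C-Oct4GFP+ cells were converted. In naive medium, Klf4 was 3.43-fold (3.26 to 3.60) and Myc 10.3-fold (8.68 to 12.2) lower than before conversion, the 2 factors past 2-fold, where 17.5% of all genes were as much lower and 10% as much higher. By CPM, Klf4 was 2.41-fold (2.29 to 2.53) lower there. In primed medium, Klf4 was 43.0-fold (37.0 to 50.1), Sox2 4.95-fold (4.67 to 5.25) and Myc 2.66-fold (2.45 to 2.88) lower, beside 16.1% of all genes lower and 13.7% higher. By CPM, the Myc difference was 1.96-fold (1.81 to 2.13) and so no longer past 2-fold. Pou5f1 was 1.43-fold lower in both, and no factor was higher after either conversion.

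The converted cells were then set against each other and against the cells they resemble. Between naive and primed cells, Klf4 was 12.5-fold (10.8 to 14.7) and Sox2 2.99-fold (2.80 to 3.18) higher in naive cells, and Myc was 3.86-fold (3.25 to 4.62) higher in primed cells. By CPM, this Klf4 ratio was 16.3 (14.0 to 19.1). Of all genes, 16.7% were at least 2-fold higher and 22.2% lower in naive cells. Against mES-Oct4GFP+ cells, naive cells differed past 2-fold in Myc alone, which was 3.59-fold (2.95 to 4.38) lower, where 6.27% of all genes were as much lower and 2.49% as much higher. Klf4 was close, 1.10-fold (1.03 to 1.18) higher in naive cells. Against R1 ESCs-primed cells, primed cells differed past 2-fold in Klf4 alone, 2.43-fold (1.79 to 3.33) higher on 179 against 57 estimated reads, where 2.3% of all genes were as much higher and 5.09% as much lower. By CPM the Klf4 ratio was 1.96 (1.45 to 2.69), under 2-fold. The shares of all genes in these last comparisons depended on the scale. Those 2-fold apart in either direction were 8.77% for naive against mES-Oct4GFP+ cells, but 15.4% with a pseudocount of 0.1 and 4.46% by FPKM, and for primed against R1 ESCs-primed cells 7.39%, 12.6% and 4.27%. These comparisons share libraries and are not independent of each other.

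**Figure D4:**
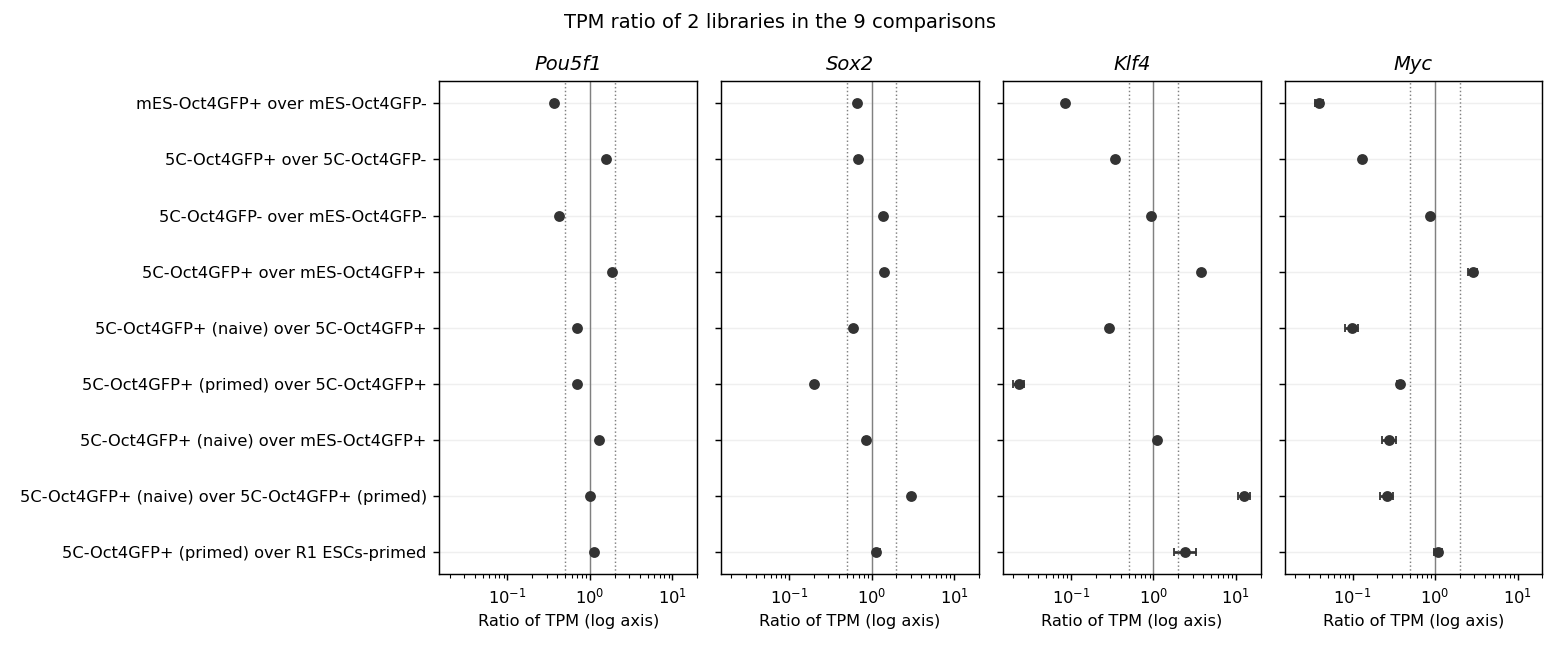
Ratio of TPM (log axis) of the first over the second library in the 9 comparisons, 1 panel per factor, with exact 95% counting intervals, a solid line at 1 and dotted lines at 2-fold in either direction. Klf4 and Myc pass 2-fold downward in both comparisons of Oct4GFP+ with Oct4GFP- cells, whereas Pou5f1 lies on opposite sides of 1 in the 2 media.

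Most listed targets of Oct4 and Sox2 were higher with the reporter in both media. Of 13 such targets, 10 were at least 2-fold higher with the reporter in mES medium and none was lower, beside 17.9% and 28.8% of all genes, with a median log2 difference of 2.54, against −0.15 over all genes. In 5C medium all 13 were higher with the reporter, beside 8.45% of all genes, with a median of 3.48, against −0.25 over all genes. The list shares Nanog, Fbxo15, Zfp42 and Esrrb with the naive markers. Cells were sorted on an Oct4 reporter, so these counts are not independent of the sort. Dppa5a, an RNA-binding protein of pluripotent cells and the highest gene of the list, had 3754 TPM with and 7.06 TPM without the reporter in mES medium. In 5C medium it had 4714 TPM with and 110.4 TPM without the reporter. Zfp42 (Rex1), a naive marker, had 337 against 1.31 TPM in mES and 219 against 14.1 TPM in 5C medium. Thus mES-Oct4GFP- cells, with the highest Pou5f1 level of all, had the lowest level of Zfp42 of the 4 sorted libraries.

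Between the Oct4GFP- cells, 7 of the 13 targets were higher and 2 lower in 5C medium, beside 9.68% and 10.1% of all genes. Nanog, a homeodomain factor of the pluripotency network, had 119.5 TPM in 5C and 17.1 TPM in mES medium, where Pou5f1 was at 1534 and 3640.4 TPM. Between the Oct4GFP+ cells, 4 were higher and 1 lower in 5C medium, beside 13.7% and 13.5% of all genes. The largest difference was that of Utf1, a chromatin-bound factor of pluripotent cells, with 1034 against 42.2 TPM. In primed medium, 7 of the 13 were lower and 1 higher than in 5C-Oct4GFP+ cells, beside 16.1% and 13.7% of all genes. Zfp42 had no reads in primed cells, which allows up to 0.276 TPM at 3 reads.

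**Figure D5:**
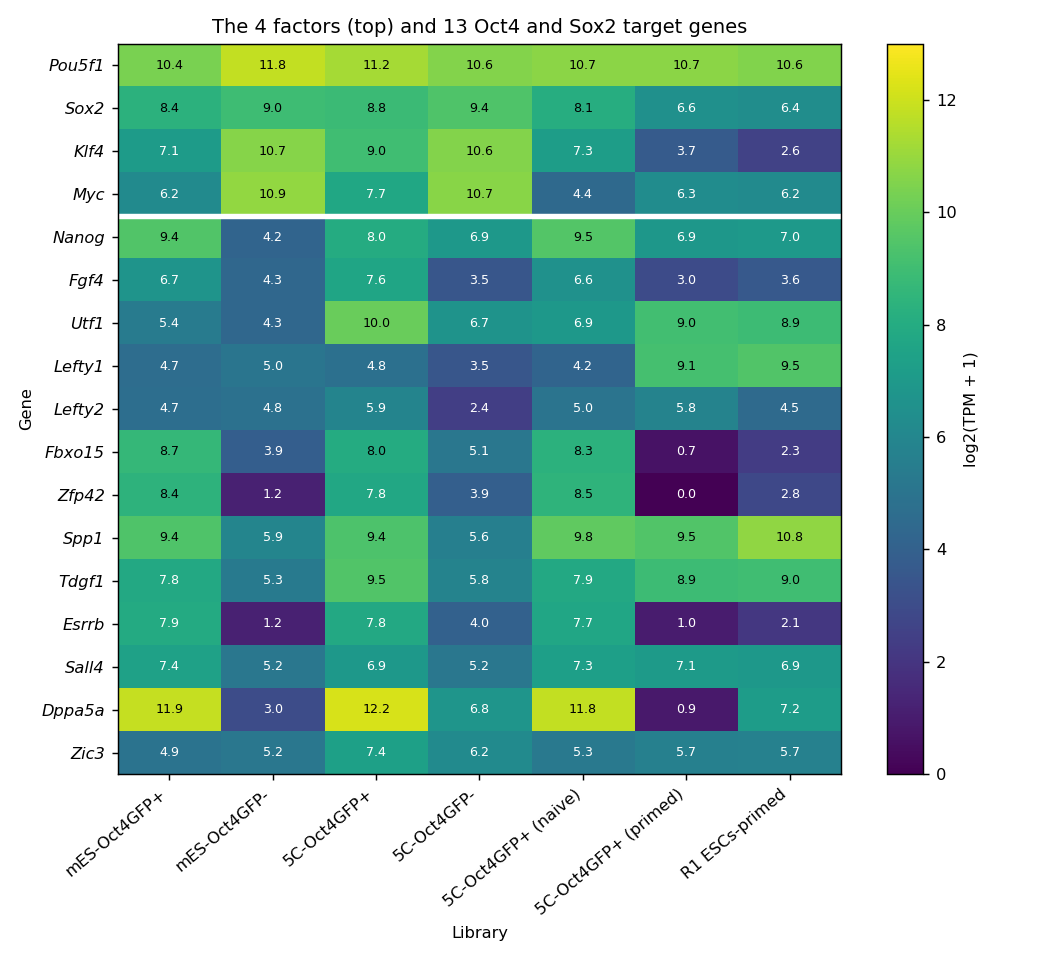
Heat map of log2(TPM + 1), printed in each cell, of the 4 factors (top) and of 13 Oct4 and Sox2 target genes in the 7 libraries. Zfp42 and Esrrb are at 1.2 in mES-Oct4GFP- cells, where Pou5f1 is at 11.8, its highest value.

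The KLF family outside Klf4 did not move as one. Klf2, a naive factor and the highest of the family, had 338 TPM with and 48.8 TPM without the reporter in mES medium, 254 TPM with and 27.2 TPM without it in 5C medium, 288 TPM in naive, 4.84 TPM in primed and 9.09 TPM in R1 ESCs-primed cells. It was therefore high with the reporter and low without it, the reverse of Klf4, and low with Klf4 in primed cells. Klf6, a broadly expressed member, had 10.4 TPM with and 200.7 TPM without the reporter in mES medium and so went with Klf4 there. Of the 13 KLF genes measured, 4 were at least 2-fold higher and 5 lower with the reporter in mES medium, where 17.9% of all genes were higher and 28.8% lower. In 5C medium 4 were higher and none lower, beside 8.45% and 22.6% of all genes.

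The Myc paralogue Mycn took the other direction between cells with and without the reporter. Mycn, the highest of 12 genes of the Myc and Max network, had 49.7 TPM with and 17.3 TPM without the reporter in mES medium, 159 TPM with and 19.3 TPM without it in 5C medium, 73.5 TPM in naive, 75.6 TPM in primed and 68.2 TPM in R1 ESCs-primed cells. It was lowest in the 2 Oct4GFP- libraries, where Myc was highest. Mxd4, a Max partner that represses transcription, had 11.4 TPM with and 93.3 TPM without the reporter in mES medium, and 18.3 against 52.0 TPM in 5C medium. Of the network, 4 genes were at least 2-fold higher and 4 lower with the reporter in mES medium, and 1 was higher and 4 lower in 5C medium. With 12 genes, the 4 lower in each medium and the 1 higher in 5C medium are near the shares of all genes given for the KLF family.

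Of 15 MYC target genes in mES medium, 5 were at least 2-fold higher, 1 was lower and 9 were neither in the cells with the reporter, beside 17.9% of all genes higher and 28.8% lower. In 5C medium none of the 15 was 2-fold apart, beside 8.45% of all genes higher and 22.6% lower, with a median log2 difference of 0.18. Npm1, a nucleolar protein and the highest of the list, had 6245 TPM with and 3504 TPM without the reporter in mES medium. Cad, an enzyme of pyrimidine synthesis, had 177 TPM with and 56.0 TPM without the reporter in mES medium. Ldha, a lactate dehydrogenase subunit, had 217 TPM with and 2699 TPM without it. Ldha also stood at 254 TPM in naive and 3279 TPM in primed cells, and it was the target farthest apart between these 2 libraries.

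The relatives of the other factors were lower in level. The highest of 14 other POU genes was Pou3f1, a primed-state factor, at 62.6 TPM in R1 ESCs-primed cells, and among cells with the reporter it had 0.48 TPM in mES and 32.1 TPM in 5C medium. The highest of 19 other SOX genes was Sox13, at 182 TPM in 5C-Oct4GFP- cells. Of the SOX genes measured, 11 of 16 were at least 2-fold lower with the reporter in mES medium and 12 of 15 in 5C medium, with 1 higher in each, beside 28.8% and 22.6% of all genes lower. Several of these genes reached 1 TPM only in the cells without the reporter, so the filter partly set their direction. The same filter was used for all genes. Sox15, which is found in mouse ESCs, was among the genes farthest apart in mES medium, with 43.5 TPM with and 7.19 TPM without the reporter.

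Across the 7 libraries, the genes whose log2(TPM + 1) followed a factor most closely were drawn from the 13567 genes that reached 5 TPM in any library. They were Spink10 (Pearson r 0.984), Gm38079 and Gm12868 for Pou5f1, Mzt1 (0.994), Atp9a and Lrch1 for Sox2, Hs6st1 (0.993), Fermt2 and Irak3 for Klf4, and Slc5a9 (0.998), Emp2 and Cul9 for Myc. The 3 for Pou5f1 were low genes, of which Spink10 reached the most, 23.1 TPM in mES-Oct4GFP- cells. Emp2, an epithelial membrane protein, had 131 TPM without the reporter in mES and 99.6 TPM in 5C medium, and 27.5 TPM or less elsewhere. Among the factors, Sox2 and Klf4 had the closest patterns (r 0.981), and Pou5f1 had an r of 0.378 with Sox2. With 7 points from libraries that share an origin these are descriptions only.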

How the data were processed

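RNA-Seq libraries (TruSeq v2, Illumina MiSeq) were made by the authors, 1 for each of 7 kinds of cells, and processed with Bowtie and RSEM on mm10, per the submitters' processing notes. Versions, the annotation release and strand settings are not given in the sources used here. The deposited expected counts are the authors' RSEM estimates of reads per Ensembl gene, not normalized. The authors' deposited TPM is the count per effective length scaled to a fixed sum, and the deposited FPKM is scaled to mapped fragments. The gene lengths and effective lengths are also theirs.

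Symbols, coordinates and transcripts came from GENCODE M21 (GRCm38). Of 14457 genes with 1 transcript, 71.1% had the same length in M21 as in the deposited tables, and Sox2 did not (2057 bases in M21). Levels were compared as log2(TPM + 1), with 2-fold as the rule of size, over all genes that reached 1 TPM in one of the libraries compared. This scale understates changes of low genes. For ratios of TPM, exact 95% intervals (Clopper-Pearson) were computed after rounding the expected counts. Intervals and the 3-read limit cover counting error only, because PCR reads without molecular identifiers are not independent molecules. With 1 library per group no test was possible.

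The factors, gene lists and comparisons were chosen with earlier results of these data known. Genes named were the 4 factors, the 3 closest in pattern to each, the highest of each list and up to 3 with the largest difference per list and comparison at a TPM of at least 5. Alternatives were a pseudocount of 0.1, FPKM, median-ratio rescaling, CPM (counts scaled to the library total, computed here), other minimum levels, effective length and Spearman correlation. The share of genes with wide length ranges among those with more than 1 transcript and the range of each factor by CPM were added after seeing the data. The scripts were tested on simulated data and used Python 3.11.15 with scipy 1.17.1, numpy 2.4.6, matplotlib 3.10.9 and pandas 2.3.3. qPCR values of the study were not used here. From qPCR, the paper reports that the exogenous factors were silenced in 5C-Oct4GFP+ cells. This result is given only as the paper states it and was not tested here.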

Additional observations from a re-analysis of the deposited data

Results flagged for a closer look

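Pou5f1 lay in opposite directions in the 2 media. Its log2(TPM + 1) difference between cells with and without the reporter was −1.46 in mES medium and 0.66 in 5C medium, and the difference between these was not tested, because each group is 1 library.

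The difference between the media also had opposite signs in cells without and with the reporter for 3 of the 4 factors. In cells without the reporter it was small for Klf4 (1.07-fold) and Myc (1.16-fold). Between 5C and mES medium, Pou5f1 differed by −1.25 in the Oct4GFP- cells and by 0.88 in the Oct4GFP+ cells. Klf4 differed by −0.094 and 1.91, and Myc by −0.22 and 1.502, in the same order. These differences too were not tested. All of them use the same 4 libraries and are not independent.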

How the results depend on the processing

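Each member's difference kept its sign under each alternative in all 9 comparisons. Of 36 such differences, 0 left their counting interval with a pseudocount of 0.1, 12 did with FPKM, 16 with CPM and 18 with median-ratio rescaling. Rescaling added 0.16 to every log2 difference of 5C-Oct4GFP+ from 5C-Oct4GFP- cells, 0.13 to those of naive from mES-Oct4GFP+ cells and 0.13 to those of naive from primed cells. Of the 4 members, 0 were 2-fold higher in primed than in R1 ESCs-primed cells by CPM. Of the related genes, those 2-fold lower in naive than in mES-Oct4GFP+ cells numbered 4 by TPM, and 2 by FPKM, 2 by rescaling and 2 by CPM. In primed against R1 ESCs-primed cells, 1 in place of 2 was higher by FPKM, and 11 (pseudocount 0.1) and 3 (minimum TPM of 5) in place of 6 were lower. By effective length, the longest length was 1.04 (Pou5f1), 1.73 (Klf4) and 1.48 (Myc) times the shortest. Of the 3 genes closest to each factor, Spearman correlation kept 0 for Pou5f1, 1 for Sox2, 0 for Klf4 and 0 for Myc, where up to 78 genes tied, and a pseudocount of 0.1 kept 1 for Pou5f1 and 1 for Sox2. The share of genes with a length range as wide as Klf4's was 2.36% of all and 3.18% of those with more than 1 transcript. No paired analysis was possible because each group has 1 library and no result comes from a test. For the same reason no library could be left out, and depth limits chiefly Klf4 in the 2 primed libraries (57 and 179 reads) and Myc in naive cells (152 reads).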
